A study of Mus musculus with 2 samples.

Results

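Arterial endothelial cells (ECs) were examined in droplet single-cell RNA-seq of dystrophic hind limb muscle. They were chosen by measured values: a barcode had to have at least 500 genes, unique molecular identifiers (UMIs) of at least 3 of the 6 EC genes Pecam1, Cdh5, Kdr, Flt1, Cldn5 and Esam, no UMI of Ptprc, Pdgfra, Prox1 or Myh11, and UMIs of at least 2 of the 4 arterial genes Cytl1, Sema3g, Gja5 and Bmx. The rule found 73 cells among 8010 barcodes, 43 of 4527 in the Ctrl library and 30 of 3483 in the dKO library. Both libraries came from mdx mice, which lack dystrophin, and both groups carried Pax7 CreERT2/R26YFP and received tamoxifen at 100 mg/kg for 5 days at 1.5 months of age. The Ctrl mice were Yy1 +/+ and the dKO mice Yy1 f/f, so that Yy1, which encodes a zinc finger transcription factor, was to be deleted in muscle stem cells, the cells in which Pax7 drives Cre. ECs are not a target of that Cre. Cells of 3 mice were pooled for each library 1 month after tamoxifen and sorted for living cells. With 1 library per group there was no replicate, no test was run, and the 95% intervals given below (exact Poisson for a level, exact binomial for a share, conditional binomial for a ratio) cover counting error only.

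Blood leaves the heart through arteries and arterioles, crosses the capillary bed and returns through venules and veins, and the ECs that line these segments differ in the genes they express. Arterial identity is set in development by VEGF and Notch signalling: ligands of the Delta and Jagged families on one cell activate Notch receptors on its neighbour, and transcription factors of the Hey and SoxF families act in the same programme. Arterial ECs are also known for connexins that couple them electrically, for elastic fibre proteins, and for the factors that set vessel tone. Capillary ECs of muscle specialise in the uptake of fatty acids, for which Gpihbp1, Cd36 and Fabp4 are textbook genes.

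The label was checked with 12 arterial markers that the rule did not use. Of these, 8 were at least 2-fold higher in the members than in the other gated ECs of the same library, in both libraries: Notch1, Notch4, Dll4, Jag1, Hey1, Gja4, Eln and Fbln5. Efnb2, Sox17 and Mecom were higher by less in 1 or both libraries, and Unc5b was lower in both. Gja4, the gap junction protein connexin 37, had UMIs in 69.8% of the Ctrl members and 70.0% of the dKO members, against 12.6% and 8.05% of the other ECs and 0.725% and 0.536% of leukocytes. Fbln5, an elastic fibre protein, had UMIs in 83.7% and 93.3% of the members and in 21.7% and 23.5% of the other ECs. Of stromal cells 56.2% and 59.5% had a Fbln5 UMI, and of leukocytes 3.11% and 2.21%. Leukocytes serve here as the background of free RNA, and they were deeper, with a median of 7696 UMIs in Ctrl and 6925 in dKO against 4989 and 4765.5 in the members. When every cell was thinned to 2000 UMIs, which left 40 and 29 members, Gja4 was seen in 52.5% and 55.2% of the members and in 0.113% and 0.145% of leukocytes. The markers thus lay on the side of the label, Unc5b apart.

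The members differed in how they met the rule. In Ctrl, 18 members had UMIs of 2 arterial genes, 19 of 3 and 6 of all 4. In dKO, 17 had 2, 13 had 3 and none had all 4. The commonest combination was Cytl1, Sema3g and Gja5, in 8 Ctrl and 6 dKO members. Just outside the threshold, 51 Ctrl and 21 dKO cells had UMIs of 1 arterial gene. Their summed level of Mgp, given as CPM (counts per 1000000 UMIs), was 503.9 in Ctrl and 2155 in dKO, against 9628 and 6557 CPM in members with 2 arterial genes and 12657 and 21674 CPM in members with 3 or 4. Gpihbp1 went the other way, with 658 and 443 CPM at 1 arterial gene, 116 and 20.8 CPM at 2, and 29.6 and 0 CPM at 3 or 4. Cells with none had 243 and 273 CPM of Mgp and 845 and 669 CPM of Gpihbp1. Cells with 1 arterial gene thus lay between those with none and the members for Mgp, and their Gpihbp1 was nearer to that of cells with none. Gja4 was graded as well, with 43.0, 235 and 649 CPM in Ctrl and 17.5, 59.1 and 573 CPM in dKO at 0, 1 and 2 arterial genes. A further 16 Ctrl and 2 dKO cells had UMIs of at least 2 arterial genes but failed another criterion, and 8 of the 16 in Ctrl had a UMI of Myh11, a smooth muscle gene.

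The members also held cells near other EC classes: 5 met the capillary rule given below and 6 the venous rule, and they were kept as arterial. The Ctrl member with most Aqp1 UMIs (44) had no Mgp UMI and 7 UMIs of Gpihbp1. Of other cell types, the mural list, genes of pericytes and smooth muscle, summed to 50 UMIs over all Ctrl members and 25 over all dKO members, which is 226 and 147 CPM against 1340 and 838 CPM in the other ECs. The pericyte gene Rgs5 had 4.51 CPM in Ctrl members and 0 in dKO members, against 786 and 275 CPM in the other ECs. The stromal list gave 56 and 54 UMIs, the immune list 24 and 25, the muscle list 9 and 2 and the lymphatic list 8 and 3, and no haemoglobin UMI was seen. The members held 221571 UMIs in Ctrl and 169980 in dKO. A doublet score placed none of them among the highest 7.5% of cells of their library, and no member barcode was among the 7 barcodes that both libraries shared. Yy1 itself stood at 253 CPM (191 to 328) in Ctrl members and 224 CPM (158 to 307) in dKO members, a ratio of 0.885 (0.57 to 1.36).

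By the rule, the number of arterial ECs relative to all cells was close in both libraries, while the other EC classes were fewer in dKO. Arterial ECs were 0.99% of cells with at least 500 genes in Ctrl (0.72 to 1.33) and 0.90% in dKO (0.61 to 1.28), which differ by -0.09 percentage points (Newcombe interval -0.53 to 0.37). Another 14 Ctrl and 2 dKO cells met the EC and arterial criteria but had a UMI of an excluded gene. That criterion left out more such cells in Ctrl, so the arterial shares of all cells and of gated ECs depend on it. Capillary and venous ECs were taken from the gated ECs that were not members. Capillary ECs, those with at least 2 of Gpihbp1, Rgcc, Cd300lg and Aqp7 and not venous, went from 5.998% (5.31 to 6.75) to 2.43% (1.94 to 3.02), a difference of -3.56 points (-4.45 to -2.68). Venous ECs, with at least 2 of Selp, Ackr1, Nr2f2 and Lrg1, went from 2.19% (1.78 to 2.67) to 1.502% (1.12 to 1.98), a difference of -0.690 points (-1.29 to -0.0734). Arterial ECs therefore made up 9.79% of the 439 gated ECs in Ctrl (7.18 to 13.0) and 16.8% of the 179 in dKO (11.6 to 23.1), 6.96 points more (1.26 to 13.6). With at least 3 of the 4 arterial genes required, 25 Ctrl and 13 dKO cells remained, 5.69% and 7.26% of gated ECs, and the difference of 1.57 points (-2.36 to 6.66) was no longer beyond counting error. The capillary share of gated ECs was lower in dKO, at 45.3% against 59.2%, which differ by -13.97 points (-22.4 to -5.30).

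**Figure D1:**
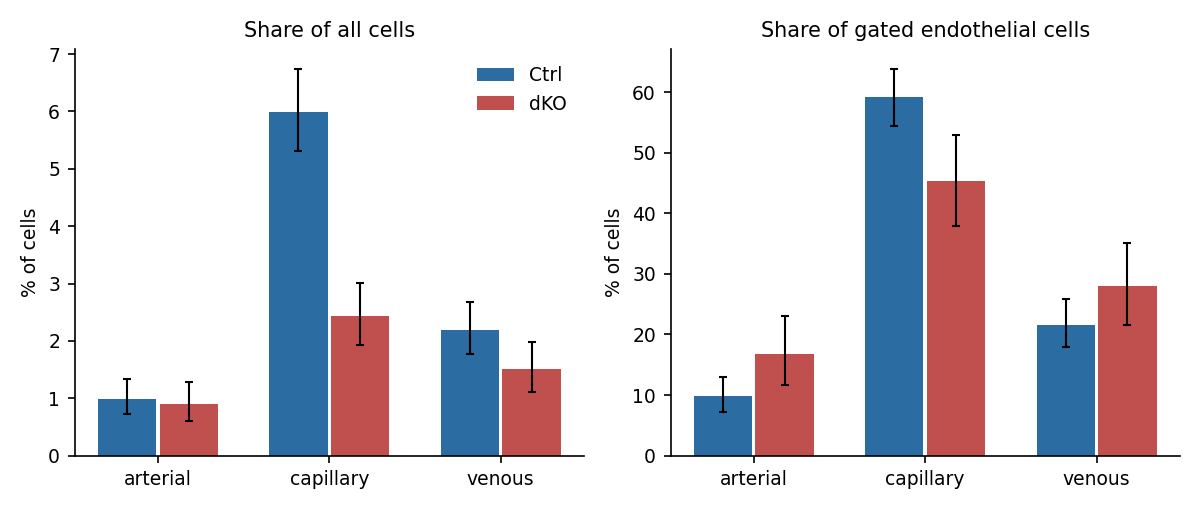
Shares of arterial, capillary and venous ECs in the Ctrl and dKO libraries, as a percent of all cells with at least 500 genes and as a percent of gated ECs, with 95% exact binomial intervals for counting error. The arterial share of all cells was 0.99% in Ctrl and 0.90% in dKO, while the capillary share was 5.998% and 2.43%.

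Depth bears on these shares, since a cell must show UMIs of sparse genes to be counted. The median depth of capillary ECs was 4178 UMIs in Ctrl and 2961 in dKO, and that of venous ECs 7068 and 7474. With every cell thinned to 2000 UMIs and the rule applied again, 26 of 425 ECs in Ctrl (6.12%) and 16 of 151 in dKO (10.6%) were arterial, a difference of 4.48 points with an interval from -0.318 to 10.7, so that the higher share among ECs was not detectable beyond counting error at that depth. Whether the mice of a pool differed in these shares cannot be told apart from the genotype.

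Against the other ECs of their library, the members were high in elastic fibre genes and low in capillary and basement membrane genes. Of 2885 genes with at least 50 UMIs in each library, 142 (4.92%) were at least 2-fold higher in the members in both libraries and 204 (7.07%) at least 2-fold lower in both. The rule works on the same cells and the EC classes share its genes, so these values describe the members and are not a test. The median log2 ratio of all these genes was -0.15 in Ctrl and -0.11 in dKO, and ratios are read against that shift.

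Mgp, which encodes matrix Gla protein, an inhibitor of calcification of the arterial wall (mm10, chromosome 6, 136872435 to 136875823), was at 11477 CPM (11035 to 11932) in Ctrl members and 13143 CPM (12603 to 13699) in dKO members. In the other ECs it was at 287 CPM (266 to 310) and 535 CPM (483 to 591), which gives ratios of 39.9 and 24.6. Mgp is abundant in stromal cells, 89.5% and 82.3% of which had a UMI, and 26.1% and 15.5% of leukocytes had one too. The share was 93.02% (80.9 to 98.5) and 93.3% (77.9 to 99.2) in the members and 25.5% and 22.8% in the other ECs, and the members lay far above the leukocytes. Thinned to 2000 UMIs, Mgp was seen in 87.5% and 93.1% of the members, 16.5% and 21.6% of the other ECs and 8.64% and 5.65% of leukocytes, so that the other ECs were above the leukocyte background too. Npnt, a basement membrane ligand of integrins named nephronectin (chromosome 3, 132881745 to 132950291), had ratios of 48.5 and 67.3. It had 190 CPM (137 to 256) and 277 CPM (203 to 368) in the members against 3.91 and 4.11 CPM.

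The elastic fibre and matrix list moved as a whole to the arterial side. All 9 of its measured members that passed the UMI minimum were at least 2-fold higher in both libraries, with median log2 ratios of 2.73 in Ctrl and 1.92 in dKO, and the summed list was at 21961 and 23114 CPM in the members against 2065 and 2709 CPM in the other ECs. Elastin (Eln), the core of the elastic fibre, had 1070 CPM (938 to 1215) in Ctrl members and 700 CPM (580 to 838) in dKO members, against 161 and 189 CPM in the other ECs. Fbln5, which tethers elastic fibres to cells, was at 835 and 1106 CPM against 89.4 and 98.6 CPM. The secreted protease Htra1 was at 474 and 371 CPM against 27.8 and 30.1 CPM, and the fibrillin-binding Ltbp4 at 1327 and 1088 CPM against 291 and 287 CPM. Clu, the extracellular chaperone clusterin, was at 3665 and 3689 CPM against 344 and 568 CPM. Outside the list, fibronectin (Fn1) was at 1034 and 1100 CPM against 101 and 107 CPM, and the short-chain collagen gene Col8a1 at 596 and 424 CPM against 33.0 and 21.9 CPM.

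Basement membrane genes lay mostly on the other side, with 7 of 12 at least 2-fold lower and 1 higher in both libraries. The collagen IV chain Col4a1 was at 298 CPM in Ctrl members and 418 CPM in dKO members against 2981 and 1988 CPM in the other ECs, and Col4a2 at 153 and 118 CPM against 1345 and 901 CPM. Col15a1 had 3 UMIs in each library over all members, 13.5 and 17.6 CPM, against 547 and 407 CPM. Col18a1, the source of endostatin, was the exception on the high side, with 302 and 300 CPM against 87.2 and 94.5 CPM. The members thus held more message of elastic fibre genes and less of collagen IV than the other ECs did.

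**Figure D2:**
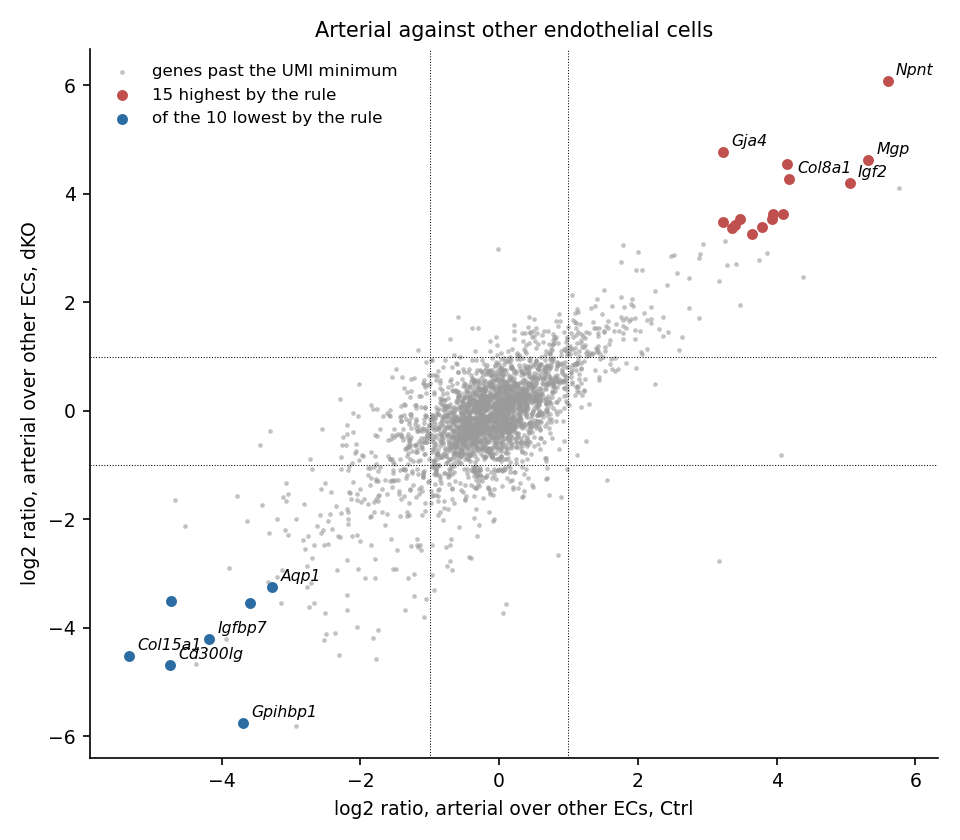
Log2 ratio of summed CPM in arterial over other ECs, Ctrl on the x axis and dKO on the y axis, 1 point per gene past the UMI minimum, with named genes labelled. The 2864 genes with UMIs in both cell groups of each library are drawn, and 21 without, such as Aplnr, are not. Mgp, Npnt, Igf2 and Col8a1 lie at the upper right and Igfbp7, Col15a1 and Cd300lg at the lower left.

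Of 10 Notch pathway genes past the UMI minimum, 4, receptors and Jagged ligands, were at least 2-fold higher in both libraries and none lower, with median log2 ratios of 0.73 and 0.85. The receptor Notch1 was at 569 CPM in Ctrl and 588 CPM in dKO against 249 and 260 CPM in the other ECs, and Notch4 at 131 and 124 CPM against 61.2 and 39.7 CPM. The ligand Jag1 was at 348 and 371 CPM against 65.1 and 73.9 CPM, and Jag2 at 117 and 118 CPM against 38.6 and 47.9 CPM. The targets Hey1 and Hey2 did not pass the UMI minimum: Hey1 was at 144 and 118 CPM against 48.2 and 37.0 CPM, and Hey2 had 6 UMIs in Ctrl members and 3 in dKO members. Sox17, a transcription factor upstream of the arterial programme, differed less, with 447 and 459 CPM against 393 and 368 CPM. Among guidance genes, 0 of 9 were at least 2-fold higher in both libraries and 1 was lower. The summed guidance list had ratios of arterial over other ECs of 0.617 in Ctrl and 0.771 in dKO. Of its genes, the arterial ephrin Efnb2 was at 280 CPM against 194 CPM in Ctrl and 329 CPM against 115 CPM in dKO.

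Genes of vessel tone were next. Of 7 measured genes, 3 were at least 2-fold higher in both libraries and none lower. Nos3, the endothelial nitric oxide synthase, was at 366 CPM in Ctrl members and 306 CPM in dKO members against 80.3 and 99.9 CPM. Ace, which makes angiotensin II, was at 474 and 547 CPM against 127 and 168 CPM. Edn1, the vasoconstrictor endothelin 1, was at 320 and 900 CPM against 92.9 and 108 CPM, but 1 dKO cell held 82 of the 153 dKO UMIs, and without the top cell of each library the levels were 261 CPM in Ctrl and 449 CPM in dKO. Some channels and enzymes of dilation under the UMI minimum had a higher CPM in the members, and not all such genes are given. Kcnn4, a calcium-activated potassium channel, was at 104 and 88.2 CPM against 5.21 and 5.48 CPM. Trpv4, a calcium entry channel, was at 81.2 and 171 CPM against 7.38 and 9.58 CPM. Ptgis, prostacyclin synthase, was at 49.6 and 88.2 CPM against 0.868 and 1.37 CPM. The members held 23 and 15 UMIs of Kcnn4, 18 and 29 of Trpv4 and 11 and 15 of Ptgis. Cav1, which coats caveolae, was lower in the members, with 1070 and 794 CPM against 2158 and 1478 CPM.

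Of 5 genes of the VEGF and angiopoietin list past the UMI minimum, 1 was at least 2-fold higher and 1 lower in the members in both libraries. Vegfc, a growth factor of the VEGF family, was at 375 CPM in Ctrl members and 235 CPM in dKO members against 27.8 and 34.2 CPM in the other ECs. Igf2, insulin-like growth factor 2, was at 966 CPM (841 to 1104) in Ctrl members and 577 CPM (468 to 703) in dKO members against 29.1 and 31.5 CPM in the other ECs. Stmn2, a microtubule regulator best known from neurons, was at 1038 and 977 CPM against 98.1 and 90.3 CPM. The remaining genes named on the high side had ratios of at least 9-fold in both libraries: the calcium pump Atp2a3, the sulfatase Sulf1, the receptor phosphatase Ptprj, Tmem158, Gprc5a and the actin-binding palladin (Palld).

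Capillary genes were low in the members. Of 9 capillary genes past the UMI minimum that the rules did not use, 8 were at least 2-fold lower in both libraries, and the summed list was at 6598 CPM in Ctrl members and 6889 CPM in dKO members against 22535 and 21393 CPM in the other ECs. The fatty acid binding protein Fabp4 was at 5190 and 5712 CPM against 14289 and 13809 CPM, Fabp5 at 149 and 141 CPM against 1376 and 1174 CPM, and the fatty acid transporter Cd36 at 429 and 494 CPM against 2074 and 1829 CPM. Aplnr, the apelin receptor, had no UMI in any member of either library. With 3 UMIs over all members of a library as the floor, 13.5 CPM in Ctrl and 17.6 CPM in dKO, it was at least 17.95-fold and at least 8.76-fold lower than in the other ECs, where it was at 243 and 155 CPM. Gpihbp1, which anchors lipoprotein lipase in capillaries, had 14 UMIs in 4 Ctrl members and 2 UMIs in 1 dKO member. Igfbp7 was at 208 and 188 CPM against 3749 and 3474 CPM. The water channel Aqp1 was at 284 and 294 CPM against 2749 and 2813 CPM, and 1 member held 44 of the 63 UMIs in Ctrl and 35 of the 50 in dKO.

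Adhesion and venous genes did not follow one direction. Of 7 leukocyte adhesion and chemokine genes past the UMI minimum, 2 were at least 2-fold higher in both libraries and 3 lower. The median log2 ratio of these 7 was -1.09 in Ctrl and -1.24 in dKO. Of 11 venous genes past the UMI minimum, 2 were at least 2-fold higher in both libraries (Vcam1 and Icam1) and 5 lower (Sele, Plvap, Emcn, Il1r1 and Nrp2). Vcam1 and Icam1, adhesion molecules for leukocytes, were higher in the members, Vcam1 at 2216 CPM in Ctrl and 1865 CPM in dKO against 201 and 482 CPM, and Icam1 at 1828 and 1141 CPM against 338 and 419 CPM. The venous genes Vwf and Selp differed: von Willebrand factor (Vwf) was at 745 and 959 CPM against 361 and 531 CPM, and P-selectin (Selp), a gene of the venous rule, at 451 and 365 CPM against 1302 and 2773 CPM. Selp was seen in 5 Ctrl and 7 dKO members, with 61 of 100 and 31 of 62 UMIs in 1 cell, and without those cells it was at 184 and 191 CPM. The chemokine Cxcl12 was lower in the members, at 144 and 118 CPM against 945 and 1064 CPM. Of 18 interferon-induced genes past the UMI minimum, none was at least 2-fold higher in both libraries and 5 were lower. Of 14 immediate early genes 2 were higher, Fosb at 862 and 1488 CPM against 215 and 196 CPM and Nr4a1 at 636 and 329 CPM against 266 and 163 CPM. Immediate early genes are known to respond to tissue dissociation, whose part was not tested. Of 9 genes of BMP and TGF-beta signalling, the receptor gene Acvrl1 was higher, at 411 and 271 CPM against 142 and 119 CPM. No heat shock gene of 9 and no ribosomal protein gene of 14 passed 2-fold in both libraries.

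The members were not alike, and Mgp and Fabp4 varied in opposite directions among them. Mgp ranged from 0 to 292 UMIs in the Ctrl members, with a median of 33, and from 0 to 523 in the dKO members, with a median of 38. Per 10000 UMIs of a cell the median of Mgp was 62.9 in Ctrl and 120 in dKO. Fabp4 had medians of 45.3 and 34.9 per 10000. The Spearman correlation of Mgp with Fabp4 was -0.68 over the 43 Ctrl members and -0.63 over the 30 dKO members, both taken per 10000 UMIs of the same cells, so that the genes share each cell's total. Between the elastic and capillary lists it was -0.72 and -0.65, but Mgp held 52.3% and 56.9% of the UMIs of the first list and Fabp4 78.7% and 82.9% of those of the second. Without Mgp and Fabp4, an alternative added after the values were seen, it was -0.32 and -0.38.

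**Figure D3:**
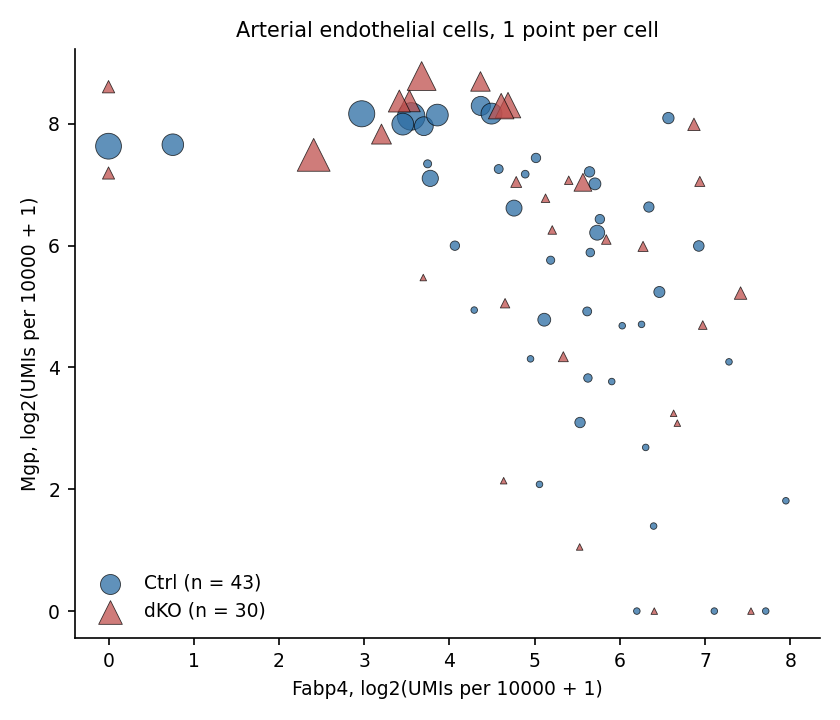
Fabp4 against Mgp in each arterial EC, both as log2(UMIs per 10000 UMIs of the cell + 1), Ctrl as circles and dKO as triangles in the same plot, point size scaled by Cytl1. Cells with much Mgp held less Fabp4 in both libraries, and the large Cytl1 points lie at the Mgp side.

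More UMIs of Mgp than of Fabp4 were found in 25 Ctrl and 20 dKO members, and fewer in 18 and 10. Cells in between were common, and 16 and 9 members lay within 3-fold of equal counts. On the Mgp side Cytl1, a secreted cytokine-like protein and a gene of the rule, was at 2972 CPM in Ctrl and 3743 CPM in dKO, against 245 and 294 CPM on the Fabp4 side. The other elastic fibre and matrix genes did not all lie on 1 side: of 9 with at least 50 UMIs, 6 were higher on the Mgp side in both libraries (Eln, Ltbp4, Lox, Bgn, Htra1 and Clu) and 3 were lower there in both (Fbln5, Fbln2 and Fbn1). Fbln5 was at 819 CPM on the Mgp side against 859 CPM on the Fabp4 side in Ctrl, and at 784 against 1590 CPM in dKO. Eln was at 1410 CPM against 569 CPM in Ctrl and 951 CPM against 324 CPM in dKO, Vcam1 at 3101 against 915 CPM and 2528 against 868 CPM, and Clu at 4844 against 1930 CPM and 4341 against 2709 CPM. The rule itself ties these genes, since a member without Cytl1 must hold at least 2 of Sema3g, Gja5 and Bmx, so these values are a description. Sema3g, a secreted semaphorin, was at 235 CPM on the Mgp side against 335 CPM on the Fabp4 side in Ctrl, and at 216 against 236 CPM in dKO. Gja5, connexin 40, was at 296 against 424 CPM in Ctrl and 353 against 177 CPM in dKO, and the kinase gene Bmx at 303 against 190 CPM in Ctrl and 98.0 against 147 CPM in dKO, so that neither had the same direction in both libraries. Of the markers outside the rule, Eln lay on the Mgp side as given above, while Notch1 was at 561 against 580 CPM in Ctrl and 568 against 618 CPM in dKO. The correlation with the elastic list was 0.81 in both libraries for Cytl1, -0.22 in Ctrl and -0.17 in dKO for Sema3g, and 0.02 and -0.05 for Gja4.

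Of 1260 other genes ranked, 718 had the same sign of correlation with the elastic list, mostly Mgp by UMIs, in both libraries. Those that went with it most, taking the weaker of the libraries, were the protease Ctsh (0.57 in both) and the peptide-amidating enzyme Pam (0.55 and 0.52), and Vwf (0.50 and 0.49), T-cadherin (Cdh13, 0.46 and 0.69) and Gkn3 (0.42 and 0.45) were also among the first 12. Those that went against it most were Cd36 (-0.70 and -0.66), Fabp4 itself and the retinol binding protein Rbp7 (-0.55 and -0.59). This ranking was chosen after the values were seen. Genes unrelated to the list can share a sign too, and no baseline for the 718 was taken, so that count is only a description. The total UMIs of a cell had a correlation of 0.15 with the elastic list in Ctrl and -0.33 in dKO. On the Mgp side the median depth was 5091 UMIs in Ctrl and 3938 in dKO, and on the Fabp4 side 4772 and 6118.5, so depth moved with the split in dKO and its part was not tested.

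The Ctrl and dKO members were next set side by side, to ask whether arterial ECs differed when Yy1 was to be deleted in muscle stem cells of the same muscle. Of 1270 genes with at least 50 UMIs over both libraries, 21 (1.65%) were at least 2-fold higher in dKO and 16 (1.26%) at least 2-fold lower, and the median log2 ratio was 0.07. Centred on that median, the counts were 15 and 22. In 9 of the 21 and 4 of the 16, a single cell held over 25% of the UMIs of the higher library. The genes given next are those with no such cell, seen in at least 20% of the members of that library.

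Dll4, the Delta ligand of arterial ECs and of tip cells (chromosome 2, 119325784 to 119335962), had 63 UMIs in 28 Ctrl members and 17 UMIs in 13 dKO members, with at most 8 and 2 UMIs in 1 cell. That is 284 CPM (218 to 364) against 100 CPM (58.3 to 160), a log2 ratio of -1.51 (-2.37 to -0.72). It was also lower in the other ECs, with 85.1 CPM in Ctrl and 27.4 CPM in dKO and a log2 ratio of -1.64 (-2.38 to -0.97), and in capillary ECs it was at 121 and 48.2 CPM. The lower Dll4 was thus seen in both EC groups. The rest of the Notch list stayed within 2-fold: of 8 genes past the UMI minimum 5 were higher and 3 lower in dKO, Dll4 alone past 2-fold, with a median log2 ratio of 0.04. Jag1 had a ratio of 1.07 (0.752 to 1.51), Notch1 of 1.03 (0.788 to 1.36) and Hey1 of 0.815 (0.442 to 1.47).

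Mcam, an adhesion molecule of the vessel wall also known as CD146 (chromosome 9, 44134469 to 44142727), had 48 UMIs in 26 Ctrl members and 10 UMIs in 9 dKO members. It was at 217 CPM (160 to 287) and 58.8 CPM (28.2 to 108), a log2 ratio of -1.88 (-3.03 to -0.88), while in the other ECs it was at 90.7 and 86.2 CPM, a log2 ratio of -0.07 (-0.50 to 0.34). Dkk2, a secreted Wnt antagonist, had 43 UMIs in 16 Ctrl members and 10 UMIs in 4 dKO members, with 1.74 and 0 CPM in the other ECs. Vegfa, the main angiogenic growth factor, was at 190 CPM in Ctrl and 76.5 CPM in dKO, a log2 ratio of -1.31. Txnip, the thioredoxin inhibitor, was at 961 CPM (837 to 1100) and 447 CPM (352 to 560), a log2 ratio of -1.10 (-1.50 to -0.72), and in the other ECs it had a log2 ratio of -0.46. The log2 ratio was -1.17 for Tnfaip3, an inhibitor of NF-kB signalling, and -1.11 for Tiparp, a mono-ADP-ribosyltransferase. Eva1a, Ccnt1 and Brwd1 completed the 10 lowest, between -1.04 and -1.02.

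On the higher side, Trim25, a ubiquitin ligase of the RIG-I pathway (chromosome 11, 88999376 to 89020293), had 16 UMIs in 14 Ctrl members and 44 UMIs in 13 dKO members, 72.2 CPM (41.3 to 117) and 259 CPM (188 to 348). Its log2 ratio was 1.84 (0.99 to 2.77), against -0.42 (-0.73 to -0.11) in the other ECs. A similar number of cells had a Trim25 UMI, 32.6% of the Ctrl and 43.3% of the dKO members, and the UMIs per such cell were more in dKO. Cemip2, a cell surface protein of hyaluronan turnover, was at 199 CPM (144 to 267) and 577 CPM (468 to 703), a log2 ratio of 1.54 (1.01 to 2.09), and it was also higher in the other ECs, by 0.68. The junction protein Jam2 was at 235 and 506 CPM, a log2 ratio of 1.11 (0.59 to 1.63), with 414 and 433 CPM in the other ECs. Fgfr3, a fibroblast growth factor receptor, was at 85.8 and 212 CPM, a log2 ratio of 1.30 (0.46 to 2.19). Hdlbp, Kdm7a, Ccdc88c, Sntb2, 4930523C07Rik and Tmed2 completed the 10 highest, between 1.20 and 1.06. Of the 20 genes, 4 had an interval on the same side of 0 in the other ECs (Cemip2, Hdlbp, Dll4 and Txnip) and 3 on the opposite side (Trim25, Ccdc88c and Tiparp).

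**Figure D4:**
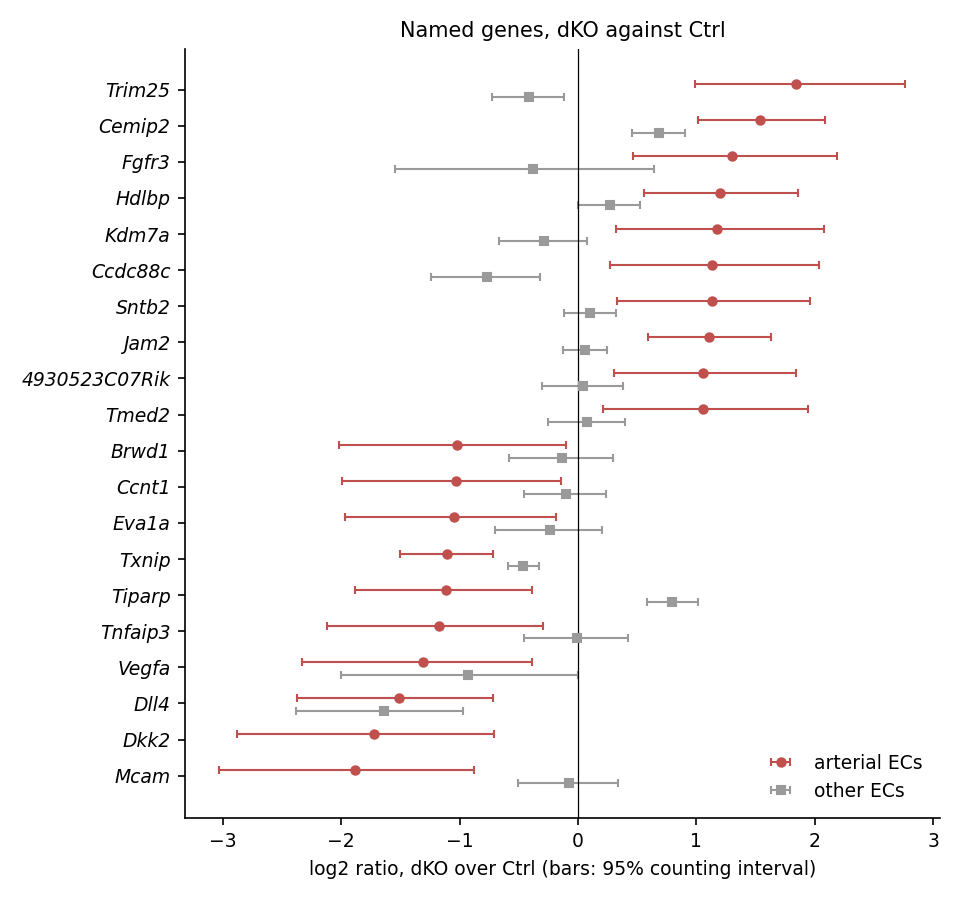
Log2 ratio of dKO over Ctrl for the 10 highest and 10 lowest named genes in arterial ECs, with the same ratio in the other ECs beside it and 95% intervals for counting error. Dll4 lies at -1.51 in arterial and -1.64 in other ECs, while Mcam lies at -1.88 and -0.07.

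A single cell held a large part of the UMIs of several genes past 2-fold, which are named here after their values were seen. Gdf15, a stress-induced cytokine, had 169 UMIs in 13 Ctrl members, 75 of them in 1 cell, and 2 UMIs in 1 dKO member, a ratio of 0.0154 (0.00185 to 0.0566). Without that Ctrl cell Gdf15 was still at 435 CPM in Ctrl. Pgf, a VEGF family ligand, was at 81.2 CPM in Ctrl and 259 CPM in dKO, with 25 of the 44 dKO UMIs in 1 cell. Ptgs2, a prostaglandin synthase, had 50 of its 61 Ctrl UMIs in 1 cell.

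The matrix genes that set the members apart were within 2-fold of each other in the libraries. Of 10 elastic fibre and matrix genes past the UMI minimum, 5 were higher and 5 lower in dKO, none past 2-fold, and the summed list had a ratio of 1.05 (1.01 to 1.10). Without the cell with most UMIs of the list in each library its log2 ratio was -0.066, below 0, while it was 0.28 with the mean of each cell's CPM and 0.49 in members with at least 3 of 4 arterial genes. Mgp went opposite ways in the members with 2 arterial genes, at 9628 CPM in Ctrl and 6557 CPM in dKO, and in those with 3 or 4, at 12657 and 21674 CPM. Eln had a ratio of 0.655 (0.521 to 0.819) and Fbln5 of 1.32 (1.08 to 1.63), and both kept their direction without the top cell of each library, at 895 and 645 CPM for Eln and 800 and 1006 CPM for Fbln5. Mgp had a ratio of 1.15 (1.08 to 1.21), but 1 dKO cell held 523 of the 2234 dKO UMIs, and without the top cell of each library Mgp was at 10874 CPM in Ctrl and 10824 CPM in dKO. Outside the list, Igf2 had a ratio of 0.597 (0.465 to 0.762) and Icam1 of 0.624 (0.523 to 0.743). For Icam1 the ratio was 0.742 (0.600 to 0.912) in venous ECs and 2.01 (1.66 to 2.42) in capillary ECs. Vcam1 had a ratio of 0.842 (0.728 to 0.971), but 1 Ctrl cell held 204 of its 491 Ctrl UMIs, and without the top cell of each library Vcam1 was at 1386 CPM in Ctrl and 1521 CPM in dKO, which turns the direction. The basement membrane list had a ratio of 1.00 (0.89 to 1.12) in the members and 0.79 in capillary ECs, and the difference of the log2 ratios was 0.34 (0.16 to 0.51).

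Interferon-induced genes summed to nearly the same level in the members of both libraries, and to a higher level in dKO in the other cell classes measured. The list was at 1999 CPM in Ctrl members and 2012 CPM in dKO members, a ratio of 1.01 (0.87 to 1.16). The ratio was 1.47 (1.39 to 1.56) in capillary ECs, 1.61 (1.52 to 1.72) in venous ECs, 2.46 in stromal cells and 2.35 in leukocytes. The log2 ratio in arterial ECs was lower by 0.55 than in capillary ECs (difference -0.55, -0.77 to -0.33) and by 0.68 than in venous ECs (-0.68, -0.90 to -0.46). Isg15, a ubiquitin-like modifier induced by interferon, had a ratio of 0.834 (0.518 to 1.33) in the members and was at 272 and 401 CPM in the other ECs. Iigp1, a GTPase induced by interferon gamma, was at 153 CPM (106 to 214) and 118 CPM (71.9 to 182) in the members, and at 531 and 999 CPM in the other ECs. Only 5 of the 22 genes passed the UMI minimum, 3 higher and 2 lower in dKO, with a median log2 ratio of 0.04 and none past 2-fold.

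The size of this contrast depended on how cells were weighed. Per cell, the median of the interferon list was 13.7 per 10000 UMIs in Ctrl members and 16.7 in dKO members, against 23.5 and 34.5 in capillary ECs and 22.1 and 27.9 in venous ECs, so that the dKO median was higher in all of the 3 classes. Genes of MHC class I presentation gave a like picture in sums, with a ratio of 0.99 (0.93 to 1.06) in the members, 1.38 in capillary ECs and 1.12 in venous ECs. Of the 8 measured genes 5 were higher and 3 lower in dKO, none past 2-fold. H2-K1, a classical class I heavy chain, was at 2753 CPM (2539 to 2980) and 2630 CPM (2392 to 2885) in the members, and at 1725 and 2387 CPM in the other ECs.

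**Figure D5:**
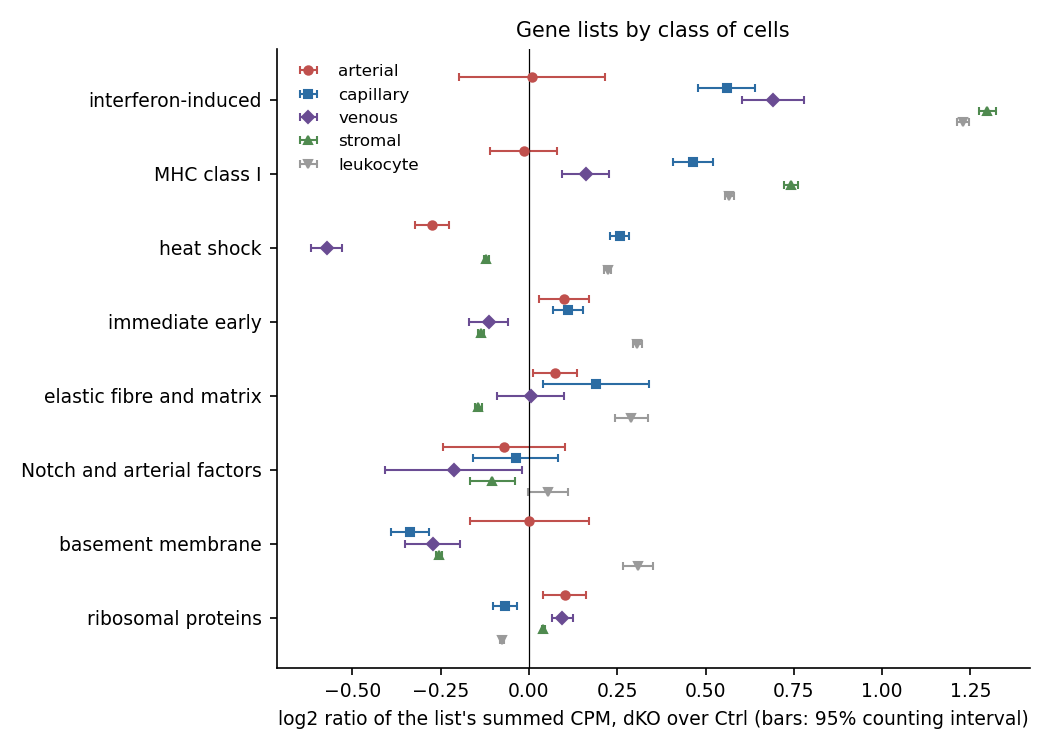
Log2 ratio of summed list level, dKO over Ctrl, in arterial, capillary and venous ECs, stromal cells and leukocytes, with 95% intervals for counting error. The interferon-induced list lies at 0.01 in arterial ECs, 0.56 in capillary ECs and 0.69 in venous ECs, which are ratios of 1.01, 1.47 and 1.61.

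Stress genes differed between the libraries in ways that varied over the classes. The heat shock list had a ratio of 0.83 (0.80 to 0.86) in the members, with 8 of 9 genes lower in dKO and none past 2-fold, and of 1.19 in capillary ECs and 0.67 in venous ECs. Hspa1a, an inducible chaperone of the HSP70 family, was at 7573 CPM (7215 to 7944) in Ctrl members and 4989 CPM (4659 to 5336) in dKO members, of which 1 cell held 32.1%, while Hsp90aa1 was at 4355 and 5406 CPM. The list ranged over single members from 26.1 to 1255 per 10000 UMIs in Ctrl, with a median of 299, and from 23.9 to 1014 in dKO, with a median of 155, so that the libraries overlapped over nearly their whole range. The immediate early list had a ratio of 1.07 (1.02 to 1.12), 7 of 13 genes being higher and 6 lower, with Fosb at a ratio of 1.73 (1.43 to 2.09; 29.6% of its dKO UMIs in 1 cell) and Nr4a1 at 0.518 (0.373 to 0.71). All 14 ribosomal protein genes were higher in dKO members, with a median log2 ratio of 0.08, which is close to the 0.07 of all genes. With the mean of each cell's CPM the log2 ratio of the summed ribosomal list was -0.042, below 0. Of the genes past the UMI minimum, none of 4 capillary, 5 guidance, 6 shear-responsive, 6 BMP and TGF-beta, 5 adhesion and 6 basement membrane genes passed 2-fold. Most genes of the capillary list were too low in the members to be compared. Gpihbp1, also under the minimum, had 14 UMIs in Ctrl and 2 in dKO members, a ratio of 0.186 (0.0205 to 0.811), with 7 of the 14 in 1 cell, without which it was at 32.2 CPM in Ctrl.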

How the data were processed

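Cells of hind limb muscle were profiled on a 10x Chromium platform. The authors deposited 1 matrix of raw UMI counts per library. The labels name Cell Ranger 7.0.0, Seurat 4.3.0 and mm10, and the matrix headers name Cell Ranger 3.0.2. No gene of the mitochondrial genome is in the matrices. Total counts were 45556596 UMIs over 4527 barcodes (Ctrl) and 33815155 over 3483 (dKO).

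Members were found by the rule given above. Their UMI counts were summed per library and given as CPM of the members' total. With 1 pooled library per group no test was run. A gene was counted as higher or lower at 2-fold or more, among genes with at least 50 UMIs and without the 14 genes of the rule. No doublets were removed in the values reported, and Scrublet scores (scanpy 1.11.5, 30 components) were used as an alternative. Named genes were the rule's genes, the listed genes, the 15 highest and 10 lowest ratios of arterial over other ECs taken by the weaker library and seen in at least 20% of cells, and the 10 highest and 10 lowest dKO over Ctrl with at most 25% of UMIs in 1 cell. Members and lists were chosen with earlier results of these data known. Coordinates are those of GENCODE M21 (GRCm38), in which 24458 of 24984 symbols were found. The ratio code was tested on simulated counts. Python 3.11.15, numpy 2.4.6, scipy 1.17.1, pandas 2.3.3 and matplotlib 3.10.9 were used.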

Additional observations from a re-analysis of the deposited data

Results flagged for a closer look

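Opposite directions of dKO over Ctrl in arterial and other ECs were looked for among the 20 named genes and the 21 lists. With counting intervals on opposite sides of no difference, they were found for 3 genes and 3 lists. The log2 ratio was 1.84 in arterial and -0.42 in other ECs for Trim25, 1.13 and -0.77 for Ccdc88c, and -1.11 and 0.80 for Tiparp. Genes outside the 20 were not searched, and Icam1, Vcam1 and Fabp4 met the same rule. The ratio was 0.624 in arterial and 1.24 in other ECs for Icam1, 0.842 and 2.40 for Vcam1, and 1.10 and 0.966 for Fabp4. The ratio of the summed list was 1.14 and 0.845 for the vasomotor genes, in which 1 dKO cell held 82 UMIs of Edn1, 0.896 and 1.39 for the venous genes, and 1.07 and 0.947 for the immediate early genes. The other ECs pool classes whose shares differed between the libraries. Taken by class, the vasomotor list had a ratio of 0.856 in capillary and 0.980 in venous ECs, the immediate early list of 1.08 in capillary and 0.924 in venous ECs, and the venous list of 1.41 in capillary and 0.996 in venous ECs. Without the top cell of each library the log2 ratio of the vasomotor list in arterial ECs was 0.072 in place of 0.19. In arterial ECs the venous list turned direction, to a log2 ratio of 0.32, with the mean of each cell's CPM. With 1 library per group these differences were not tested, and their intervals hold counting error only.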

How the results depend on the processing

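With 1 pooled library per genotype, the genotype cannot be told apart from the mice, the sort or the run. Of 40 values for the shares and the counts of genes, 35 lay within the interval of the value reported (shares) or within 1.5 times of it (counts), and 5 did not. These limits are wide: the difference in the arterial share of gated ECs went from 6.96 to 1.57 points with at least 3 of 4 arterial genes. The counts depended on the UMI minimum. With at least 20 UMIs, 135 genes were higher and 115 lower in dKO members (3004 genes), and 229 higher and 443 lower in arterial than in other ECs (5408 genes). With at least 3 of 4 arterial genes, 36 genes were higher in dKO (641 genes), 7 of them among the 21.

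Of 105 log2 ratios of 21 lists, 85 stayed within the interval of the value reported. Removal of doublets took out no member, so its values equal those reported and are counted among the 85. The sign changed in 13 of the 105. In 10 of these the interval of the value reported included 0, such as the capillary list at -0.15 with the mean of each cell's CPM and the shear-responsive list at 0.13 with at least 3 of 4 arterial genes. In the other 3 it did not include 0: the elastic list to -0.066 without its top cell in each library, and the venous and ribosomal lists to 0.32 and -0.042 with the mean of each cell's CPM. The interferon list had a log2 ratio of 0.29 with at least 3 of 4 arterial genes. Of the 20 named genes none turned direction in any of the alternatives run. Past 2-fold in all of them were 8, Dll4, Mcam, Trim25, Cemip2 and Dkk2 among these. The 20 genes were chosen for large ratios with no single cell holding a large part of the UMIs of the higher library. Removal of doublets could not change their ratios, and centring or leaving out the top cell could hardly turn ratios so chosen. That none turned is therefore little evidence of stability. Centred on the median, 165 genes were higher and 171 lower in arterial than in other ECs. Leaving out cells with at least 2 pericyte genes, an alternative chosen after seeing the data, gave 135 and 198. No member had a doublet score high enough to be removed, so that alternative left the dKO over Ctrl values of the members as they were. No paired analysis was possible because each group has 1 library.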
